A study of Mus musculus with 14 samples.

Results

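Whole ileum of mice injected with interleukin-22 (IL-22) and taken at postnatal day 16 was compared with whole ileum of untreated mice at day 24, an age past the suckling period. The aim was to show which genes were short of the day 24 level after the injection and which were past it. The genes compared were those with at least 1 TPM (a transcript level scaled for gene length and library size) in at least 3 of the 7 libraries, which were 14671 of the 46855 gene symbols of the deposited table. The injected group (rmIl22) held 3 libraries from wild-type C57BL/6N mice, an inbred laboratory strain, that received recombinant mouse IL-22 at days 14 and 15, at 0.1 µg per g body weight in 100 µL; the route is not given in the labels. The day 24 group (P24) held 4 libraries from wild-type C57BL/6N mice with no injection. A saline group (PBS), 3 libraries from wild-type mice of that strain given the same volume of phosphate-buffered saline on the same days and also taken at day 16, is given beside them as the starting level. The 4 libraries of untreated day 14 mice in the series entered only an alternative fit of all 14 libraries. The age entries of the labels, 24 days in the rmIl22 libraries and 14 days in the PBS libraries, disagree with the collection day of the protocol. The labels do not say when the P24 mice were separated from their mothers, and P24 is called the weaned level here by its age. They call the libraries of a group replicates without saying whether littermates were used, so p-values measure the spread between these libraries.

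IL-22 is made by lymphocytes of the gut wall and binds a receptor on epithelial cells, where it acts through the transcription factor STAT3. It is known for inducing antimicrobial lectins, acute-phase proteins, oxidant-producing enzymes and fucosylation of the gut surface. At weaning the ileum replaces the suckling enterocyte, which takes up milk protein and immunoglobulin into large lysosomes, by the adult enterocyte with its sugar and peptide hydrolases and bile acid import, and Paneth cells of the crypts reach their adult number.

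The rmIl22 and P24 mice differed in injection and in age, by 8 days, so the effects of IL-22, of handling and of age cannot be told apart in this comparison. The 7 compared libraries held 35.6 to 44.7 M reads assigned to genes, and the PBS libraries 39.4 to 46.4 M. The epithelial markers Epcam and Cdh1 and the intestinal factor Cdx2 did not pass the test between the groups, whereas Vil1, a microvillus protein of epithelium, was lower after IL-22 (867, 626 and 700 against 904 to 1356 TPM, adjusted p = 0.031). The Vil1 call was lost without P24 library 1, 2 or 6 or rmIl22 library 2 or 3 (adjusted p 0.051 to 0.087). Muc17 is not listed in the table. The ileal markers Fabp6 and Slc10a2 were present in all 7 libraries. Library 2 of the rmIl22 group stood apart from the other two of its group. It had 35.7 TPM of Slc10a2 against 237 and 366 TPM, 699 TPM of Fabp1, a fatty acid carrier, against 2.32 and 2.34 TPM, and 627 TPM of the neutrophil and macrophage gene S100a9, named after its values were seen, against 0.367 and 97.3 TPM. Reads of the Y-linked gene Ddx3y marked 1 of 3 rmIl22, 1 of 4 P24 and 3 of 3 PBS libraries as male, and the part of sex in the results was not tested. The B and plasma cell genes summed to 474 and 385 TPM in P24 libraries 1 and 8 and to 109 and 73.4 TPM in libraries 2 and 6. In whole tissue, fewer cells of a type and less RNA per cell cannot be told apart.

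Of the 14671 genes, 3057 were higher in rmIl22 than in P24 (20.8%) and 820 were lower (5.59%) in limma's test with Benjamini-Hochberg adjusted p under 0.05, and 6036 genes had an unadjusted p under 0.05. The log2 fold changes given here are rmIl22 minus P24 on log2(TPM + 1), which understates the change of low genes. The median gene was 0.17 higher in rmIl22 on this scale. After each library was divided by its median ratio to the others, the median was -0.01, with 1313 genes higher (8.95%) and 1429 lower (9.74%), so the share of calls that were higher moved from 78.8% to 47.9%. All 1313 of these higher calls and 819 of the 820 lower calls were made on both scales, and no gene was called in opposite directions. The count of higher genes was 1686 without P24 library 6, 1960 without P24 library 1 and 2001 without rmIl22 library 1, and the count of lower genes was 509 without P24 library 6 and 521 without P24 library 2. Without rmIl22 library 2 there were 4470 higher and 902 lower genes.

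The lists of related genes separated along this scale. Of 23 suckling-type enterocyte genes tested 21 were higher in rmIl22 and 0 lower, and of 17 Paneth cell genes 16 were lower and 1 higher. Of the 23 tested genes known to respond to IL-22 or STAT3, 2 were higher (8.7%, against 20.8% of all genes), 10 lower (43.5%, against 5.59%) and 11 did not pass. Without rmIl22 library 1 or 3, 5 or 6 were lower. The plot of log2 fold changes by list shows these groups on opposite sides of the median gene.

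**Figure D1:**
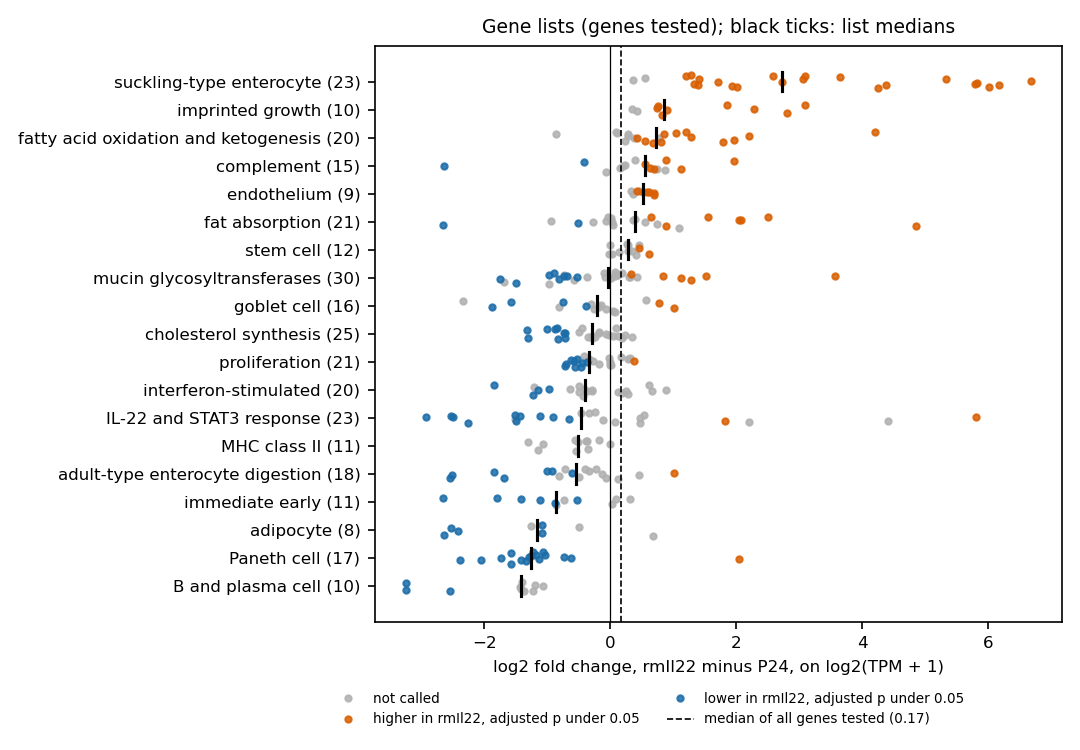
Each point is a gene of the list named on the vertical axis (number tested in parentheses), placed by its log2 fold change (rmIl22 minus P24, 3 against 4 libraries) on the horizontal axis and coloured by its call. Black ticks are list medians, from 2.73 for suckling-type enterocyte genes to -1.41 for B and plasma cell genes, and the dashed line is the median of all genes tested, 0.17.

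Of 5 Reg family genes tested 2, Reg3g and Reg3a, were lower than in P24 (40%, against 5.59% of all genes). Reg3b and Reg3g are neighbouring genes for secreted lectins that bind bacterial surfaces. The 250 bases before their starts are shown together with those of Ada, the gene that was lowest against P24, because STAT3 is the factor through which IL-22 acts. Capitals mark the letters TTCNNNGAA, a core shared by STAT binding sites and read the same on both strands, which 8.3% of all 32851 RefSeq promoters (GRCm38.p6, 250 bases before to 50 after the start) hold. Reg3b (chr6:78370635-78370884, plus strand) holds 1 match, Reg3g (chr6:78468875-78469124, minus strand) holds 0 and Ada (chr2:163750240-163750489, minus strand) holds 1, which also meets the stricter letters TTCCNGGAA found in 1.15% of promoters.
Reg3b: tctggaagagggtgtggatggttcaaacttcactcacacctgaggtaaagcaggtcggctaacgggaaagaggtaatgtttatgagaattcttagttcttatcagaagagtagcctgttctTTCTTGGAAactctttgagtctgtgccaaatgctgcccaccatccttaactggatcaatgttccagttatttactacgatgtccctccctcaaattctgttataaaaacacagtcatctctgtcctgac
Reg3g: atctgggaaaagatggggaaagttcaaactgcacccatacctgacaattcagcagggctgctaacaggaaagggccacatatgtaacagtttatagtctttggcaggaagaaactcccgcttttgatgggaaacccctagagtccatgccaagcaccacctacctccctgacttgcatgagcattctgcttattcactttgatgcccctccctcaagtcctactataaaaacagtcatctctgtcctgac
Ada: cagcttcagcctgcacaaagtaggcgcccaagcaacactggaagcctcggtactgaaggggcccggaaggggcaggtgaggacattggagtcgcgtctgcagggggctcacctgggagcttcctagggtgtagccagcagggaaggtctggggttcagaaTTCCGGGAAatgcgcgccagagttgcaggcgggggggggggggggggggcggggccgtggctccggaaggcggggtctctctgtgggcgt

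Of 22 genes on the list of IL-22 and STAT3 targets with a RefSeq promoter, 4 held the looser letters (18.2%), and of 112 genes named here with a promoter 13 did (11.6%). A gene counted here when any of its promoters held the letters, whereas the 8.3% of all promoters counts single promoters, so the shares are not alike. A match says only that these letters are in this window. The HNF1 motif and the inverted repeat bound by the bile acid receptor were each in 3 of all 32851 promoters and in 0 of the 112. Letters this rare could hardly be met among 112 genes, so the 0 says nothing about such sites.

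Reg3g (ENSMUSG00000030017.2, chromosome 6, 78466269 to 78468872, minus strand, protein coding, GRCm38) stood at 3983, 8476 and 3506 TPM in rmIl22 libraries 1 to 3, against 11906, 18671, 15747 and 10799 TPM in the P24 libraries. In the PBS libraries it was between 52.2 and 417 TPM. All rmIl22 values thus lay between the saline and the weaned values, with a log2 fold change of -1.51 against P24 (SE 0.35, adjusted p = 0.019). The call was lost without P24 library 6 (adjusted p = 0.059), rmIl22 library 1 (0.065) or library 3 (0.066), and its adjusted p was 0.0017 without rmIl22 library 2. Reg3b had 16052, 50775 and 14488 TPM after IL-22 and 54469 to 79178 TPM in P24. Its groups did not overlap, and it missed the threshold on the deposited scale (log2 fold change -1.51, adjusted p = 0.051) and passed it after median scaling (adjusted p = 0.043). Without rmIl22 library 2 its log2 fold change was -2.09 (adjusted p = 0.0014). Reg3a, another lectin of the family, had 41.3 to 74 TPM after IL-22 and 214 to 291 TPM in P24 (log2 fold change -2.26, adjusted p = 0.00029), and its rmIl22 values lay below or at the lower end of the 73.1 to 132 TPM of saline. How reads were divided between these similar genes is uncertain.

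The acute-phase gene Saa1 and the amino acid transporter gene Slc6a14 were among the 11 response genes that did not pass, and their values overlapped those of P24. Saa1 (chromosome 7, 46740497 to 46742980, minus strand) had 1870, 1882 and 1634 TPM after IL-22 and 805, 1522, 1997 and 1115 TPM in P24, so the ranges overlapped, while saline had 7.28 to 27.8 TPM. The log2 fold change was 0.48 (95% confidence interval -0.19 to 1.15, adjusted p = 0.25). Slc6a14 had 540, 175 and 325 TPM after IL-22, 166 to 321 TPM in P24 and 8.47 to 28.7 TPM in saline, with a log2 fold change of 0.48 (95% confidence interval -0.40 to 1.36, adjusted p = 0.37). A test that misses the threshold does not show that these levels were equal.

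The other serum amyloid genes were above the weaned level. Saa2, next to Saa1 and similar to it in sequence, had 20.9, 31.9 and 19.7 TPM after IL-22 and 3.22 to 9.67 TPM in P24 (log2 fold change 1.83, SE 0.31, adjusted p = 0.0056). Saa3, a serum amyloid gene that macrophages and epithelium make, had 138, 3089 and 305 TPM after IL-22 and 6.45 to 10.9 TPM in P24 (log2 fold change 5.81, SE 0.91, adjusted p = 0.0037). The highest Saa3 value was in the rmIl22 library with the high S100a9, and PBS library 2, at 626 TPM, also exceeded 2 of the 3 rmIl22 libraries. The part of other cells in this result was not tested. Without rmIl22 library 2 the Saa3 log2 fold change was 4.51 (adjusted p = 0.00013), and without library 1 it was 6.75.

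Oxidant-producing enzymes were lower than in P24. Nos2, the inducible nitric oxide synthase, had 24.3, 13.7 and 5.88 TPM after IL-22 and 58.7, 126, 65.6 and 76 TPM in P24, with 0.579 to 1.05 TPM in saline. The groups did not overlap (log2 fold change -2.53, SE 0.43, adjusted p = 0.0055). Duox2, a hydrogen peroxide generating oxidase of the epithelial surface, had 12.4, 42.6 and 5.97 TPM against 65.2 to 154 TPM, a log2 difference of -2.50 (adjusted p = 0.018), and its adjusted p was 0.056 without rmIl22 library 1. Its maturation factor gene Duoxa2 had 19.7, 55.8 and 5.24 TPM against 115 to 180 TPM, a log2 difference of -2.92 (adjusted p = 0.014). The Duox2 and Duoxa2 log2 fold changes were -3.22 and -3.69 without rmIl22 library 2, and without library 3 they were -1.90 and -2.10. In all 3 genes the rmIl22 libraries were spread more widely than the P24 libraries in relation to their level, with library 3 the lowest.

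Fut2, the fucosyltransferase that adds the terminal fucose of the gut surface, had 15.3, 12.7 and 5.6 TPM after IL-22, 21.5, 39.1, 27.4 and 39.9 TPM in P24 and 1.42 to 1.98 TPM in saline. It was lower than in P24 by a log2 fold change of -1.49 (SE 0.34, adjusted p = 0.016). Ggt1, the ectoenzyme that cleaves glutathione, had 76.6, 23 and 54.7 TPM after IL-22, 203 to 283 TPM in P24 and 4.16 to 5.5 TPM in saline (log2 fold change -2.44, adjusted p = 0.0028). The immediate response gene Junb was likewise lower than in P24, at 48.4 to 71.8 against 123 to 155 TPM, a log2 difference of -1.12 (adjusted p = 0.0023).

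The transmembrane mucins did not pass the test. Muc3 (chromosome 5, 137134922 to 137149322, minus strand) had 155, 210 and 227 TPM after IL-22 and 255, 1191, 233 and 358 TPM in P24, against 57.5 to 99.6 TPM in saline. The rmIl22 values lay just under the lowest P24 value, and the difference of -1.03 on the log2 scale had a 95% confidence interval of -2.25 to 0.19 (adjusted p = 0.18), with P24 library 2 far above the rest. Muc13 had 1275, 1804 and 1006 TPM after IL-22 and 1420 to 2433 TPM in P24 (log2 fold change -0.37, adjusted p = 0.3). Of the 4 transmembrane mucin genes tested, 0 were called in either direction by limma on either scale or by voom, and 0 had an unadjusted p under 0.05.

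**Figure D2:**
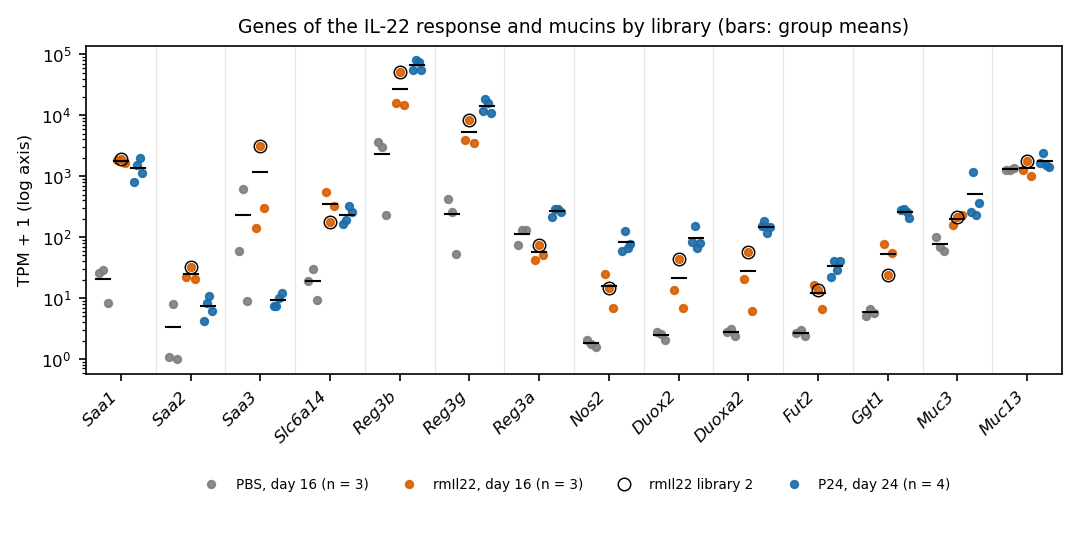
Points are single libraries (PBS 3, rmIl22 3, P24 4) with TPM + 1 on a logarithmic vertical axis and genes on the horizontal axis, bars are group means and open circles mark rmIl22 library 2. Saa1 and Slc6a14 overlap the P24 values, Saa2 and Saa3 lie above them, and Reg3g, Nos2, Duox2, Duoxa2, Fut2 and Ggt1 lie between saline and P24.

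The cytokine and its receptor chains were measured in the same libraries. Il22 was below the filter, with 0, 2 and 0 reads in the rmIl22 libraries and 25, 7, 8 and 63 reads in the P24 libraries. Permuting the 7 TPM values between the groups (exact, two-sided as 2 times the smaller one-sided p) gave p = 0.057. This is the smallest value that this form of the test allows here. A count of 0 reads is compatible with up to 3 reads by counting error alone. Il22ra1, the epithelial receptor chain, was at 71.7 to 104 TPM after IL-22 and 54 to 65.3 TPM in P24 (log2 fold change 0.42, adjusted p = 0.064). The shared receptor chain gene Il10rb was higher in rmIl22 (49.7 to 52.8 against 26.2 to 29.9 TPM, log2 fold change 0.82, adjusted p = 0.00039).

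Further genes lay between saline and weaned mice. By the rule of a call against both groups and no overlap with either, 31 genes were above PBS and below P24, and 205 were below PBS and above P24. Both counts, out of 14671 genes tested, rest on comparisons that share the rmIl22 libraries. They were made on the deposited scale only, where 20.8% of all genes were higher than P24 and 5.59% lower. In the first set, Tat, a tyrosine-degrading enzyme, had 2.39, 2.78 and 1.4 TPM after IL-22, 8.18 to 26.5 TPM in P24 and at most 0.0539 TPM in saline (log2 fold change against P24 -2.21, adjusted p = 0.0054). Card9, an adaptor of fungal recognition, had 3.76 to 4.58 TPM after IL-22, 15.6 to 25.5 TPM in P24 and 1.09 TPM as the saline median (log2 fold change -1.92, adjusted p = 0.00029). The others of the 10 with the largest smaller difference were Nos2, Ggt1, Reg3g, Fut2, the predicted gene Gm3336 (log2 fold change against P24 -1.70), the lysophospholipid acyltransferase gene Lpcat4 (-1.31), AA467197 (-1.31) and the serine protease gene Prss30 (-1.22). The AA467197 call was lost without rmIl22 library 3 (adjusted p = 0.055) or P24 library 6 (0.05).

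The set below PBS and above P24 held genes of the suckling ileum that were lower after IL-22 than in saline and higher than in weaned mice. Lect2, a secreted protein of liver and gut, had 31, 83.1 and 48.6 TPM after IL-22, 1.47 to 4.24 TPM in P24 and 180 to 406 TPM in saline (log2 fold change against P24 3.76, SE 0.37, adjusted p = 0.00041). Pck1, the committing enzyme of gluconeogenesis, had 97.4, 97.8 and 141 TPM after IL-22, 9.32 to 30.3 TPM in P24 and 358 to 879 TPM in saline (log2 fold change 2.65, adjusted p = 0.002). Fndc5, which encodes the precursor of irisin, was at 16.2 to 18.7 TPM after IL-22, 0.765 to 1.04 TPM in P24 and 62.9 to 112 TPM in saline (log2 fold change 3.26, adjusted p = 2.9e-06). The others of the 10 leading genes were Tdrp (log2 fold change 2.35), the antimicrobial peptide gene Leap2 (2.29), the receptor tyrosine kinase gene Ros1 (3.20), the lipase gene Aadac (2.28), Gm13178 (2.08), the thyroid hormone carrier gene Ttr (2.29) and Mylk3 (2.42), all with an adjusted p of at most 0.0059 against P24. With 0.1 or 5 added to TPM in place of 1, the value was 4.95 or 1.59 for Ros1, 3.74 or 1.09 for Mylk3 and 4.85 or 0.74 for Gm13178.

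Of the 10 largest higher differences among protein-coding genes without overlap, several were in genes of the suckling-type enterocyte list. Mamdc4 (chromosome 2, 25563115 to 25574845, minus strand), an endosomal membrane protein of suckling enterocytes, had 254, 659 and 322 TPM after IL-22 and 2.48, 3.02, 2.22 and 3.1 TPM in P24 (log2 fold change 6.68, SE 0.29, adjusted p = 1.2e-05). Folr1, a folate receptor, had 378, 402 and 496 TPM against 4 to 5.66 TPM, a log2 fold change of 6.17 (SE 0.13, adjusted p = 4.7e-07). In saline these genes stood at 834 to 1137 and 958 to 1329 TPM, above every rmIl22 value. The lysosomal channel gene Mcoln3 had 94.6, 102 and 115 TPM against 0.711 to 0.985 TPM (log2 fold change 5.82), and Npl, which degrades sialic acid, 383, 834 and 465 TPM against 4.92 to 12.7 TPM (6.02).

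Lct, the milk sugar enzyme lactase, had 66, 523 and 65.1 TPM after IL-22, 1.89, 4.48, 1.65 and 1.68 TPM in P24 and 588 to 827 TPM in saline. Library 2 alone was near the saline values, and all 3 were above P24. This gave a log2 difference of 5.34 (SE 0.71, adjusted p = 0.0018), or 4.35 (adjusted p = 9.6e-05) without library 2. The remaining genes among these 10 were Saa3, Spp2 (log2 fold change 5.79), the secreted glutathione peroxidase gene Gpx3 (5.35), the hyaluronidase gene Hyal5 (5.20) and the coagulation factor gene F10 (4.90). With 0.1 or 5 added to TPM in place of 1, the value was 7.12 or 3.24 for Hyal5 and 7.11 or 2.90 for F10. Of the 23 suckling-type enterocyte genes tested, the 21 higher ones make 91.3%, against 20.8% of all genes, with a list median of 2.73, and 20 were higher after median scaling. Fcgrt, the neonatal receptor that carries immunoglobulin G across the epithelium and was named after its values were seen, had 672 to 1459 TPM against 98.3 to 136 TPM (log2 fold change 3.06). The genes that did not pass were Cubn, an endocytic receptor (0.56, adjusted p = 0.37), and Cela1, an elastase (0.36, adjusted p = 0.27). Both passed without rmIl22 library 2, with adjusted p of 0.044 and 0.015.

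**Figure D3:**
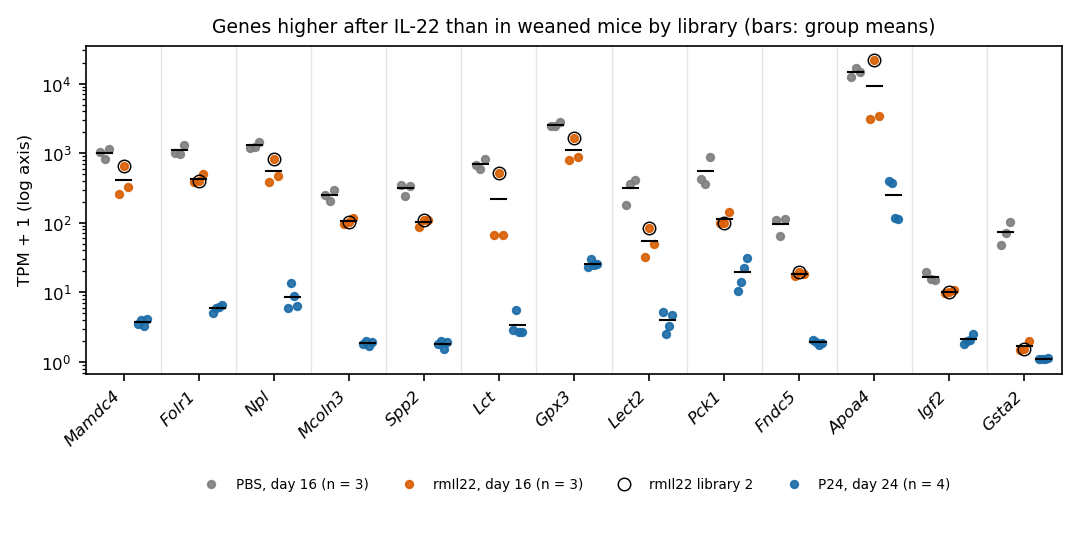
Points are single libraries with TPM + 1 on a logarithmic vertical axis, bars are group means and open circles mark rmIl22 library 2. For Mamdc4, Folr1 and Mcoln3 all 3 rmIl22 libraries lie between the P24 libraries and the higher PBS libraries, while Lct of rmIl22 library 2 lies near and Apoa4 above saline and Gsta2 lies near P24.

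Of 20 fatty acid oxidation and ketogenesis genes 12 were higher (60%, against 20.8% of all genes), 0 lower and 8 not called, with a median of 0.72. After median scaling the counts were 10, 0 and 10. Among the higher ones were the acyl-CoA thioesterase genes Acot1 (log2 fold change 2.21) and Acot2 (1.96), which are similar in sequence, and Pdk4, the kinase that restrains pyruvate use (1.79). Pdk4 had 12.5, 13.4 and 14.8 TPM after IL-22 and 1.68 to 6.39 TPM in P24, and its rmIl22 values overlapped the 9.44 to 14 TPM of saline. Of 13 genes of hexose transport and gluconeogenesis 3 were higher (23.1%, against 20.8% of all genes), 2 lower (15.4%, against 5.59%) and 8 not called, with a median of -0.34, and 3 and 5 after median scaling. The lower ones numbered 1 without P24 library 1, 2 or 6 and 4 without P24 library 8 or rmIl22 library 2. Besides Pck1, the gluconeogenic genes Fbp1 (log2 fold change 2.08) and G6pc (2.03) were higher, at 121 to 173 against 25.4 to 46.8 TPM and 63.3 to 103 against 14.6 to 20.4 TPM. Slc5a1, the sodium-coupled glucose importer (218 to 421 against 461 to 683 TPM, log2 fold change -0.92, adjusted p = 0.026), and Tkfc, a kinase of fructose breakdown (-0.78, adjusted p = 0.015), were lower. The Slc5a1 call was lost without P24 library 1, 2 or 6 or rmIl22 library 1 or 3 (adjusted p 0.054 to 0.075).

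Of 21 fat absorption genes 7 were higher (33.3%, against 20.8% of all genes) and 2 lower (9.52%, against 5.59%), and 4 and 2 after median scaling (8.95% and 9.74% of all genes). Without P24 library 1, 6 or 8 the higher ones numbered 4, and without rmIl22 library 2 the lower ones numbered 5; without P24 library 1 or 6, or rmIl22 library 1 or 3, 1 was lower. Apoa4, an apolipoprotein of chylomicrons, had 3066, 21527 and 3473 TPM after IL-22 and 400, 369, 116 and 113 TPM in P24 (log2 fold change 4.86, SE 0.77, adjusted p = 0.004). The Apoa4 value was 3.95 (adjusted p = 0.0024) without rmIl22 library 2. Apoc3 (2.50) and the lipid droplet coat gene Plin2 (2.08) were higher as well. Fabp2, the intestinal fatty acid carrier, went the other way, with 1445, 1368 and 988 TPM after IL-22, 6440 to 8988 TPM in P24 and 1681 to 3006 TPM in saline (log2 fold change -2.66, SE 0.20, adjusted p = 0.00012).

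Among glutathione and xenobiotic genes, Gsta2, a glutathione transferase below the filter of this comparison, was at 47.1, 71.2 and 101 TPM in saline, 0.489, 0.508 and 1.01 TPM after IL-22 and 0.0951 to 0.12 TPM in P24. These rmIl22 values rest on 12, 12 and 24 reads and the P24 values on 2 to 3 reads, and the exact permutation test gave p = 0.057. Maob, which oxidises amines, had 29.7, 55.1 and 21.7 TPM after IL-22, 11.2 to 14.6 TPM in P24 and 258 to 371 TPM in saline (log2 fold change against P24 1.35, adjusted p = 0.011). Ugt1a1, which conjugates bilirubin, was higher than P24 (1.40), whereas the transferase gene Gsta1 (-2.50) and the aldose reductase-like gene Akr1b7 (-2.62) were lower. Of 25 genes of the list, 5 were higher (20%, against 20.8% of all genes) and 4 lower (16%, against 5.59%), with 3 higher without P24 library 6 or rmIl22 library 1 or 3, and 7 lower without rmIl22 library 1.

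The genes furthest below the weaned level included nucleoside-degrading enzymes. Ada (chromosome 2, 163726584 to 163750239, minus strand), adenosine deaminase, had 12.8, 7.14 and 5.23 TPM after IL-22 and 478, 439, 426 and 250 TPM in P24, with 2.87 to 4.57 TPM in saline. Its mean was 8.39 ± 3.93 TPM (SD, n = 3) against 398 ± 101 TPM (SD, n = 4), a log2 fold change of -5.45 (SE 0.31, adjusted p = 3.4e-05). Upp1, uridine phosphorylase, had 6.21, 6.46 and 3.05 TPM against 96.9 to 152 TPM, a log2 difference of -4.37 (adjusted p = 2.9e-05). In both genes every rmIl22 value was above the PBS values and nearer to them than to P24.

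The 10 largest lower differences among protein-coding genes without overlap also held the chloride channel regulator family gene Clca4a (log2 fold change -3.65), the membrane carbonic anhydrase gene Car4 (-3.64), Pmp22 (-3.44), the peptidase gene Mme, also called neprilysin (-3.28), the fatty acid desaturase gene Scd1 (-3.12), the sulfate transporter gene Slc13a1 (-3.01), Duoxa2 and the muscarinic receptor gene Chrm4 (-2.89). Car4 had 3.46, 12.2 and 1.48 TPM against 59.2 to 67.4 TPM. Slc13a1 had 63.4, 1.85 and 38.7 TPM after IL-22 and 134 to 175 TPM in P24, and its call (adjusted p = 0.049) was lost when any 1 P24 library (adjusted p 0.086 to 0.11) or rmIl22 library 3 (0.063) was left out. Without rmIl22 library 2 its log2 fold change was -1.62 with an adjusted p of 0.0013. Pmp22 was low in the same library, with 13.4 TPM against 161 and 57.4 TPM, and its log2 fold change was -2.52 without it. That of Scd1 was -2.28 and that of Car4 -4.30 without rmIl22 library 2, without library 3 that of Clca4a was -2.81, and without library 1 those of Slc13a1, Pmp22 and Scd1 were -3.87, -4.26 and -3.74.

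Adult digestive genes were in part lower than in P24. Sis (chromosome 3, 72888557 to 72967863, minus strand), the disaccharidase sucrase-isomaltase, had 297, 84.2 and 295 TPM after IL-22, 1191, 1748, 999 and 750 TPM in P24 and 53.7 to 72.7 TPM in saline (log2 fold change -2.51, SE 0.47, adjusted p = 0.0083). The Sis value was -1.91 without rmIl22 library 2. Arg2, the mitochondrial arginase, had 8.33, 6 and 6.46 TPM against 38.2 to 52.7 TPM, a log2 difference of -2.54 (SE 0.16, adjusted p = 5.8e-05). Treh, the trehalose-splitting enzyme, was lower by -1.85. Of 18 genes of this list 7 were lower (38.9%, against 5.59% of all genes), 1 higher (5.56%, against 20.8%) and 10 did not pass. After median scaling 9 were lower, and 4 were lower when any 1 P24 library was left out. Without rmIl22 library 2, 2 were higher.

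Genes of bile acid transport were called in both directions. Slc10a2, the ileal bile acid importer, had 366, 35.7 and 237 TPM after IL-22, 728, 790, 923 and 781 TPM in P24 and 5.13 to 19.8 TPM in saline. The difference on the log2 scale was -2.45 (SE 0.69, adjusted p = 0.035), or -1.44 (adjusted p = 0.0015) without rmIl22 library 2 and -3.10 without library 1. The call was lost when P24 library 1, 2, 6 or 8 was left out (adjusted p 0.069 to 0.088) or rmIl22 library 3 (0.052). Fabp6, the cytosolic bile acid carrier, had 9878, 1663 and 7836 TPM against 14370 to 21407 TPM, a log2 difference of -1.72 (adjusted p = 0.06), and passed without library 2 (-0.92, adjusted p = 0.019), without rmIl22 library 1 (adjusted p = 0.041) and after median scaling (0.037). The export transporter gene Slc51b was tight within groups, at 738 to 903 TPM after IL-22, 1450 to 1738 TPM in P24 and 417 to 472 TPM in saline (log2 fold change -0.94, adjusted p = 0.0019). Abcc2, an apical export pump, was above P24 at 57.6 to 73.9 against 11.7 to 21.2 TPM (1.96). Of 12 genes of this list 2 were higher (16.7%, against 20.8% of all genes) and 2 lower (16.7%, against 5.59%), and 2 and 5 after median scaling. Without P24 library 1, 6 or 8 or rmIl22 library 3, 1 was higher, without any 1 P24 library or rmIl22 library 3, 1 was lower, and without rmIl22 library 1, 4 were lower.

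Cholesterol synthesis genes were lower in 9 of 25 cases (36%) and higher in 0, on both scales. Of all genes 5.59% were lower on the deposited scale. Without P24 library 1, 2 or 6 or rmIl22 library 3, 3 were lower, and 5 without rmIl22 library 1. Tm7sf2, a sterol reductase gene (log2 fold change -1.32), Sqle, squalene epoxidase (-1.30), and Hmgcs1, the cytosolic enzyme that makes the precursor of mevalonate (159 to 240 against 287 to 454 TPM), led. Sqle had 35.8, 42.8 and 25.2 TPM after IL-22, 62.3 to 107 TPM in P24 and 10.6 to 26 TPM in saline, and its groups did not overlap.

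Paneth cell genes were lower than in P24. Lyz1, the Paneth cell lysozyme (chromosome 10, 117287797 to 117292868, minus strand), had 1102, 1460 and 1546 TPM after IL-22, 4618, 4654, 4178 and 4542 TPM in P24 and 1454 to 1959 TPM in saline. The log2 fold change was -1.73 (SE 0.16, adjusted p = 0.00031). Of 17 genes tested the 16 lower ones make 94.1%, against 5.59% of all genes, with a median of -1.25. The counts were the same after median scaling and without rmIl22 library 2. The pentraxin gene Mptx2 had 137, 504 and 319 TPM after IL-22 and 870 to 1580 TPM in P24 (log2 fold change -2.05, adjusted p = 0.011). Mptx1, a pentraxin of the same kind, was the exception, with 66.6, 19.5 and 78 TPM after IL-22 and 6.72 to 13.7 TPM in P24 (log2 fold change 2.04, adjusted p = 0.016), a call lost without rmIl22 library 1 (adjusted p = 0.055) or 3 (0.053), with 2.65 without library 2. Many members are defensin genes of near-identical sequence, so the division of reads between them is uncertain and they are not independent.

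Goblet cell genes were mixed, with 2 of 16 higher (12.5%, against 20.8% of all genes), 4 lower (25%, against 5.59%) and 10 not called. After median scaling 1 was higher and 5 were lower. Zg16, a lectin that keeps bacteria from the epithelium, had 1701, 1295 and 784 TPM after IL-22, 4042 to 4820 TPM in P24 and 917 to 1449 TPM in saline (log2 fold change -1.87, SE 0.25, adjusted p = 0.002). Ang4, an antimicrobial ribonuclease also made by Paneth cells, had 187 to 252 against 661 to 733 TPM (-1.57), and Agr2, which folds mucins, 581 to 897 against 1136 to 1197 TPM (-0.75). Guca2a, the hormone guanylin, was above P24 at 2636 to 4523 against 1747 to 1948 TPM (1.02, adjusted p = 0.0098). Fcgbp, a mucus protein, was higher as well (0.78, adjusted p = 0.015), a call lost after median scaling (0.07), without P24 library 6 (0.051) and without rmIl22 library 3 (0.052). Muc2, the secreted gel mucin, did not pass, with 142, 188 and 209 TPM against 67.3 to 165 TPM (0.57, adjusted p = 0.18).

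Genes on the list of mucin glycosyltransferases, enzymes that transfer sugars and not all of which are known to act on mucins, were likewise called in both directions. Of 30, 6 were higher (20%, against 20.8% of all genes) and 8 lower (26.7%, against 5.59%), and 4 or 5 were lower without P24 library 1, 2 or 6. Sialyltransferase genes led the higher ones, with St3gal1 at 73.4 to 123 TPM after IL-22, 5.49 to 8.67 TPM in P24 and 152 to 209 TPM in saline (log2 fold change 3.57, SE 0.20, adjusted p = 3.4e-05), followed by St3gal6 (1.52) and St3gal3 (1.28). The chain-extending enzyme gene B3gnt7, with 2.71 to 7.7 against 11.1 to 24.7 TPM, was lowest (-1.75, adjusted p = 0.013), followed by Fut2 and B4galnt1 (-0.97).

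**Figure D4:**
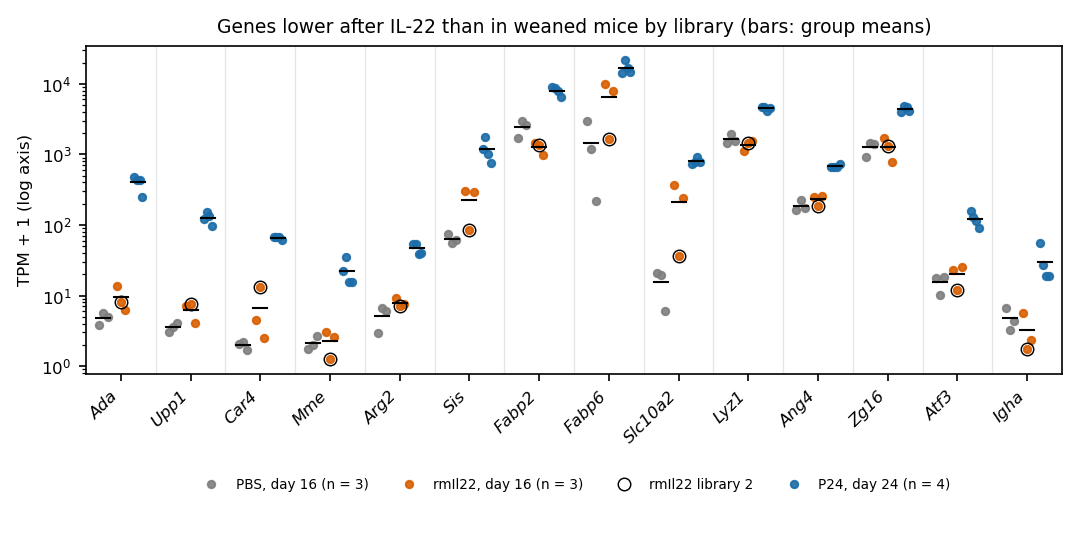
Points are single libraries with TPM + 1 on a logarithmic vertical axis, bars are group means and open circles mark rmIl22 library 2. Ada, Upp1, Lyz1, Ang4 and Atf3 of the rmIl22 libraries sit nearer to the PBS than to the P24 libraries, whereas Sis, Fabp6 and Slc10a2 of rmIl22 libraries 1 and 3 sit between PBS and P24.

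A few genes lay outside the range of both other groups. By a call against both and no overlap, 4 of the 14671 genes tested were above both P24 and PBS and 9 were below both. These counts were made on the deposited scale only. Tlr2, a receptor for bacterial lipoproteins, had 6.63, 7.06 and 4.78 TPM against 2.91 to 3.84 TPM in P24 and 2.35 to 2.52 TPM in saline (0.67 against P24, adjusted p = 0.013). Dusp14, a phosphatase of signalling kinases, had 11.2, 12.2 and 11.6 TPM against 7.57 to 8.6 TPM in P24 (0.46, adjusted p = 0.0065). Against P24 the Tlr2 and Dusp14 calls were lost after median scaling (adjusted p of 0.064 and 0.12). Also above both was the microRNA hairpin entry Mir7675 at 2.48 to 4.26 TPM (1.01, adjusted p = 0.02), lost without P24 library 1 (0.054), P24 library 6 (0.059) or rmIl22 library 3 (0.066), and reads of an overlapping transcript could not be separated from it.

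Among the genes below both groups, Fos, an immediate early transcription factor (chromosome 12, 85473890 to 85477273, plus strand), had 27.3, 22.2 and 20.5 TPM after IL-22, 78.8, 94.1, 43.8 and 141 TPM in P24 and 52.9 to 78 TPM in saline. The log2 fold change was -1.79 against P24 (SE 0.34, adjusted p = 0.0087) and -1.48 against PBS (adjusted p = 0.014). Me1, which makes NADPH for lipid synthesis, had 6.38, 10.7 and 5.57 TPM against 15.7 to 33.2 TPM in P24 and 17.5 to 24.4 TPM in saline (-1.47 against P24, adjusted p = 0.008). Apol9b, an interferon-inducible apolipoprotein L gene, had 1.33, 1.61 and 1.18 TPM against 8.72 to 22.2 TPM in P24 and 4.47 to 6.65 TPM in saline (-2.61, adjusted p = 0.00065). The antiviral sensor gene Oas1g (-1.15), the lipid-binding gene Sec14l2 (-1.26), the colipase gene Clps (-0.62), Trim30d (-0.51), Tiparp (-0.31) and the hairpin entry Mir5124a (-1.50) completed the set. The Oas1g call was lost without P24 library 1 (adjusted p = 0.058) or rmIl22 library 1 (0.061) or 3 (0.074). The Trim30d call was lost without P24 library 1 (0.099), 2 (0.091) or 6 (0.058) or rmIl22 library 1 (0.11) or 3 (0.12). The Tiparp call was lost without any 1 P24 library (0.056 to 0.09) or rmIl22 library 1 (0.1) or 3 (0.086).

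**Figure D5:**
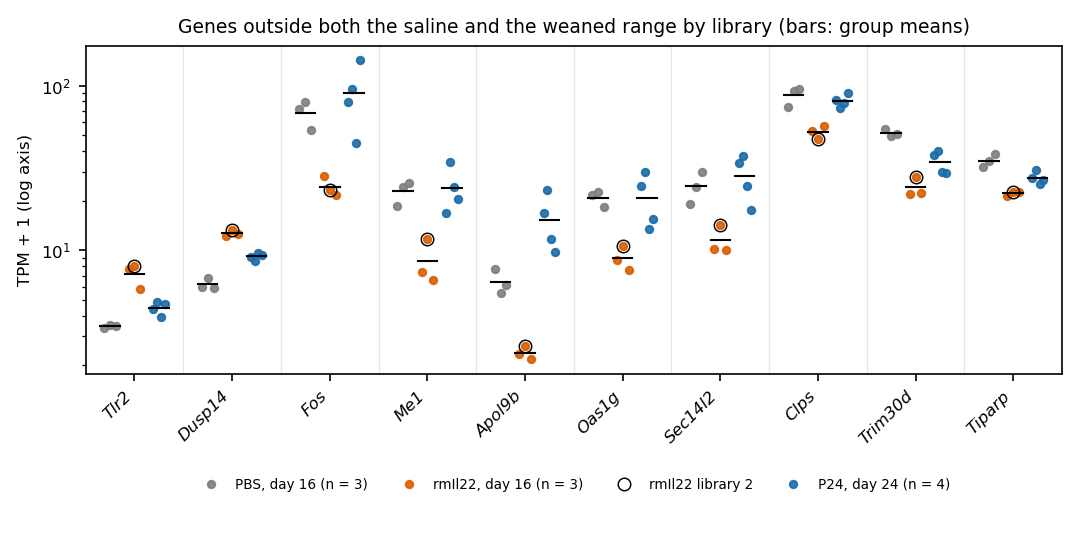
Points are single libraries with TPM + 1 on a logarithmic vertical axis, bars are group means and open circles mark rmIl22 library 2. The 3 rmIl22 libraries lie above both PBS and P24 for Tlr2 and Dusp14 and below both for the other genes shown.

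Interferon-stimulated genes were lower than P24 in 4 of 20 cases (20%, against 5.59% of all genes) and higher in 0, with the same counts after median scaling. Their sums overlapped, at 381 to 545 TPM after IL-22 and 321 to 645 TPM in P24, both below the 967 to 1220 TPM of saline. Mx1, which passed the filter through the P24 libraries alone, had 0.487 to 0.752 TPM after IL-22 and 1.79 to 3.67 TPM in P24 (log2 fold change -1.15, adjusted p = 0.0051). The related antiviral gene Mx2 (-1.23) and Oas3, a sensor of double-stranded RNA (-1.84, 0.67 to 1.61 against 3.33 to 11.3 TPM), were lower too. Of 11 immediate early genes 6 were lower (54.5%, against 5.59% of all genes) and 0 higher, led by Atf3, a stress-induced factor, at 11.1 to 24.7 TPM after IL-22, 90.2 to 154 TPM in P24 and 9.1 to 17.3 TPM in saline (-2.65, SE 0.28, adjusted p = 0.00062), followed by Fos and Zfp36 (-1.42).

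Of 12 circadian clock genes 2 were higher (16.7%, against 20.8% of all genes) and 2 lower (16.7%, against 5.59%). Without rmIl22 library 2, 5 were higher. Without P24 library 2, 6 or 8 or rmIl22 library 3, 1 was lower. Per2 (14.6 to 20.4 against 3.52 to 5.29 TPM, log2 fold change 1.82) and Cry2 (1.25), repressors of the clock, were higher, and Arntl, its activator, was lower (16.4 to 18.7 against 27.1 to 34.5 TPM, -0.81, adjusted p = 0.0018). The time of day at collection is not given in the sources used here.

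Growth genes under parental imprinting were above P24 in 8 of 10 cases (80%) on both scales, with a median of 0.86. Of all genes 20.8% were higher on the deposited scale. Igf2, the fetal growth factor, had 8.65, 9.21 and 9.64 TPM after IL-22, 0.818, 1.01, 1.09 and 1.48 TPM in P24 and 14.2 to 18.7 TPM in saline (log2 fold change 2.28, SE 0.13, adjusted p = 3.4e-05). Its neighbour H19 (3.10), the cell cycle inhibitor gene Cdkn1c (2.81) and the clearance receptor gene Igf2r (1.85) were higher also. Proliferation genes were lower in 9 of 21 cases (42.9%, against 5.59% of all genes) and higher in 1 (4.76%, against 20.8%). After median scaling these counts were 12 and 0, and 3 to 5 were lower without P24 library 1, 2, 6 or 8 or rmIl22 library 3. The lower proliferation genes were led by Cdc20 (17 to 23.1 against 30.1 to 32.3 TPM, -0.72), Birc5 (-0.70) and Ccnb1 (-0.62), all of mitosis. Mki67, the common marker of dividing cells, had 18.2, 23.9 and 22.7 TPM against 24.2 to 27.8 TPM (-0.28, adjusted p = 0.097) and passed without rmIl22 library 2 (0.042) and after median scaling (0.044).

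The claudin genes Cldn8 (64 to 80.4 against 8.53 to 17.5 TPM, log2 fold change 2.51) and Cldn15 (-1.01), which set the ion selectivity of the tight junction, were the 2 called of 16 tight junction genes, of which 1 was higher and 5 lower after median scaling. On the deposited scale 6.25% of this list were higher and 6.25% lower, against 20.8% and 5.59% of all genes. Guca2b, uroguanylin, was higher (0.88) and the anion exchanger gene Slc26a6 lower (-1.12) among ion and water transport genes. Of 14 enteroendocrine genes 4 were higher (28.6%, against 20.8% of all genes) and 0 lower, with the somatostatin gene Sst (0.86) and Chga (0.83) leading, and 1 was higher after median scaling, where the Chga call was lost (adjusted p = 0.071). Rgs13 of tuft cells was lower (-1.46). The iron importer gene Slc11a2 (1.71) and the ferritin gene Ftl1 (1.27) were above P24.

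Lists of markers of cells other than epithelium differed in direction, and some had no called member. The 11 B and plasma cell genes summed to 8.84 to 92.7 TPM after IL-22 and 73.4 to 474 TPM in P24, and 3 of 10 tested were lower (30%, against 5.59% of all genes). Igha, the heavy chain of immunoglobulin A, had 4.62, 0.766 and 1.33 TPM against 54.7, 26.1, 17.7 and 17.7 TPM, a log2 difference of -3.24 (SE 0.49, adjusted p = 0.0032), and its joining chain gene Jchain was lower by -2.55. Of 14 genes of T and natural killer cells 3 were lower (21.4%, against 5.59% of all genes), among them the granzyme gene Gzmb (0.203 to 0.418 against 1.38 to 3.24 TPM, -1.24). Without rmIl22 library 1, 1 was lower. The summed level of the list was 18.3 to 44.9 against 23.7 to 53.3 TPM.

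Macrophage genes were higher in 4 of 11 cases (36.4%, against 20.8% of all genes) and lower in 1 (1 and 1 after median scaling, where 8.95% of all genes were higher), with 2 higher without P24 library 6 or 8 or rmIl22 library 3. Csf1r, the receptor of macrophage growth factor, had 30 to 40 TPM after IL-22, 12.8 to 17.3 TPM in P24 and 66.8 to 82.6 TPM in saline (1.08, adjusted p = 0.0014). Cd14, a co-receptor for bacterial endotoxin, had 7.94 to 11.3 TPM after IL-22, 14.2 to 16.8 TPM in P24 and 1.94 to 2.78 TPM in saline (-0.64 against P24, adjusted p = 0.0088). The summed level of the list was 232 to 504 against 228 to 382 TPM. Of 11 class II histocompatibility genes, 0 were called in either direction by limma or by voom, and 0 had an unadjusted p under 0.05.

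Endothelial genes were higher in 6 of 9 cases (66.7%, against 20.8% of all genes, and 4 after median scaling), led by Kdr (0.70) and Tie1 (0.69), with sums of 67.3 to 75.5 against 42.8 to 52.8 TPM. Of 13 fibroblast and matrix genes 2 were higher (15.4%, against 20.8% of all genes), led by Pdgfra (0.83), and 1 after median scaling. On the deposited scale 1 was higher without any 1 P24 library or rmIl22 library 1, and 11 were higher without rmIl22 library 2, in which the list summed to 727 TPM. Of 11 smooth muscle genes 0 were called in either direction by limma on the deposited scale, 1 had an unadjusted p under 0.05, 1 was lower after median scaling and by voom, and 4 were lower without rmIl22 library 1, with 1421 TPM in rmIl22 library 2 and up to 5365 TPM in its group. Adipocyte genes were lower in 5 of 8 cases (62.5%, against 5.59% of all genes), and in 1 to 3 cases without any 1 P24 library or rmIl22 library 3. Retn had 0.316 to 5.1 against 11.3 to 25.9 TPM (-2.53, adjusted p = 0.0097, or -1.90 without rmIl22 library 2), and the list summed to 134 to 219 against 257 to 450 TPM. Of 15 complement genes 6 were higher (40%, against 20.8% of all genes) and 2 lower (13.3%, against 5.59%), and 4 and 2 after median scaling. C2 (1.96) was furthest above P24. On the deposited scale the lower ones numbered 0 or 1 without any 1 P24 library or rmIl22 library 1 or 3. How far the share of these cells bears on the epithelial results was not tested.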

How the data were processed

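RNA of whole mouse ileum was sequenced in 14 libraries, of which 7 enter the comparison and 3 (PBS) serve as reference. The authors deposited TPM values for 46882 entries. Per the submitters' processing notes, which give no order, FastQC 0.11.2, STAR 2.4.0f, HTSeq 0.6.1p1, DESeq2 1.14 and mm10 were used. Symbols turned into date numbers (27 entries, at most 0.078% of a library's TPM) were left out. The authors' own comparison tables were not used here. The deposited TPM values gave back whole reads for 100% of 31189 genes (tolerance 0.01), with library totals of 35.6 to 46.5 M (median 42.6 M). These recovered reads were used for an alternative and for genes below the filter, and intervals and floors cover counting error only.

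Groups came from the sample titles. Genes with at least 1 TPM in 3 of the 7 libraries were tested on log2(TPM + 1) with limma 3.58.1 (trended variance, R 4.3.3), with Benjamini-Hochberg adjustment over all 14671 genes and a threshold of 0.05, and the script was tested on simulated data. A gene below 1 TPM in 1 group could pass this filter through the other group alone, as Mx1, Gzmb, Mcoln3 and other named genes did. The size and rank of such a change depend on the pseudocount. The columns of P24 carry the numbers 1, 2, 6 and 8 in the table, which name its libraries here. Named were the 10 largest higher and lower protein-coding genes without overlap, genes past or between both other groups (at most 10 each), up to 4 called members per direction of 45 gene lists, and a fixed set of IL-22, suckling and marker genes. Fcgrt, Cubn, Cela1, Fabp1, S100a9, Epcam, Cdh1 and Cdx2 were named outside this rule after their values were seen. Some genes that the rule names are not reported here. The members and lists were chosen with earlier results of these data known. The 14 alternatives changed the pseudocount (0.1 or 5), the filter (none or a mean of 5 TPM), the scaling (each library divided by its median ratio to the others), the libraries fitted (all 14) or the test (voom on recovered reads), or left out each of the 7 libraries. Promoter letters were read from RefSeq (GRCm38.p6).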

Additional observations from a re-analysis of the deposited data

Results flagged for a closer look

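In 8 of 142 genes checked, 1 of the 4 P24 libraries was flagged as apart from the other 3, measured as its gap to the nearest library over the whole range of the group. Chance flags about 1 in 20 groups, so 8 of 142 is near the number that chance would flag. The ratio is also high for a small difference where the other 3 libraries are close, as in Car4, Ang4 and Guca2b. For the membrane mucin gene Muc3 the ratio was 0.870, with 1191 TPM in P24 library 2 and 233 to 358 TPM in the others. For Lct it was 0.915 (P24 library 2 at 4.48 TPM, the others at 1.65 to 1.89 TPM), for the endothelial receptor gene Tie1 0.970 (P24 library 2 at 5.41 TPM, the others at 4.37 to 4.4 TPM), and for the hairpin entry Mir7675 0.922 (P24 library 2 at 1.93 TPM, the others at 0.72 to 0.815 TPM). P24 library 8 stood apart in Car4 with 0.848 (59.2 against 66.2 to 67.4 TPM), in Ang4 with 0.956 (733 against 661 to 664 TPM) and in Guca2b with 0.857 (501 against 540 to 546 TPM). P24 library 1 stood apart in the immunoglobulin joining chain gene Jchain with 0.846 (34.8 against 6.84 to 11.1 TPM).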

How the results depend on the processing

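The count of genes higher in rmIl22 than in P24, 3057 as reported, was 1313 after median scaling and 1422 by voom, and 1686 to 4470 when 1 library was left out. The count of lower genes, 820 as reported, was 1429 after median scaling and 1427 by voom, and 509 to 902 when 1 library was left out. Median scaling moved the median gene from 0.17 to -0.01, and voom changed the test and the treatment of low values together with the scaling; the cause of the changes was not tested. Of 1976 values of named genes under the 14 alternatives, 1890 kept direction and side of the threshold, 69 were no longer called, 17 were newly called and 0 reversed. Of 130 called named genes, 113 were called under every alternative in which they were fitted, and 1, Vil1, lost the call without rmIl22 library 2. Genes such as Tdrp, Gm13178 and Mylk3 were not fitted under the filter of a mean of 5 TPM. Without the filter, the calls of Reg3g (adjusted p = 0.19), Slc10a2 (0.083), Slc13a1 (0.11) and Guca2a (0.059) were among those lost. No paired analysis was possible because the P24 columns of the table, numbered 1, 2, 6 and 8, cannot be matched to replicates 1 to 4 of the labels. With 3 and 4 libraries the exact permutation test as run, with 2 times the smaller one-sided p, cannot go below p = 0.057. Genes below the filter were not in the main fit, and of these Il22 and Gsta2 were tested by permutation.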
